A study of Mus musculus with 8 samples.

Results

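The transcripts of 55 members of the enzyme families that add marks to histones or remove them were examined in mouse metaphase II (MII) oocytes, the ovulated eggs that await fertilization. They are all the genes, out of 8537 measured in both ribosome-bound and total mRNA, whose symbol starts with the name of a lysine methyltransferase or demethylase, acetyltransferase, deacetylase, sirtuin or protein arginine methyltransferase family, or is Eed, Suz12, Dot1l, Ep300 or Crebbp. The choice went by name, but a gene also had to pass the authors' filter on level in both ribosome-bound and total mRNA. It was made with earlier results of these data known. Writers, which add a mark or belong to a complex that does, made up 32 of the 55, and erasers, which remove one, made up 23. These classes went by family. They also hold Setd3, Setd6, Hdac6 and Kmt2e, described below as acting on other proteins or inactive, and the mitochondrial Sirt4 and Sirt5. A further 8 symbols of these families were listed in the total mRNA table but not in the ribosome-bound table (Kdm4b, Kdm4c, Kdm5a, Kmt2a, Prmt1, Prmt7, Setd7 and Sirt2). Enzymes of these families that the tables list under other symbols, such as Whsc1 and Carm1, are not among the 55.

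The oocytes came from RiboTagF/F;Zp3-Cre female mice, in which a Cre recombinase driven by the oocyte promoter of Zp3 switches on an HA-tagged form of the ribosomal protein RPL22, so that HA immunoprecipitation recovers mRNA bound to oocyte ribosomes. Young mice were 1 month old and old mice were retired breeders of 12 to 15 months, all stimulated with PMSG and hCG, and all groups carried both alleles. Each of 4 pools (2 young, 2 old) combined 200 oocytes, and was split into a ribosome-bound sample (HA library) and, from 10% of the same lysate, a total mRNA sample (input library). Breeding history differed between the groups together with age, so that their parts cannot be told apart, and a p-value here measures only the spread between pools.

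Histone methyltransferases and acetyltransferases place methyl or acetyl groups on lysines or arginines of histone tails, and demethylases, deacetylases and sirtuins take them off. H3K4 methylation (COMPASS family) marks promoters and enhancers, H3K36 methylation (SETD2, NSD1) covers transcribed regions, and H3K9 and H3K27 methylation (SETDB1, Polycomb repressive complex 2) go with silenced chromatin. The MII oocyte makes almost no RNA, so its enzymes come from stored maternal mRNA that is translated on demand. Many such mRNAs carry a cytoplasmic polyadenylation element (CPE), the 3'-UTR sequence bound by CPEB1, the protein at the centre of the study.

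Of the 55 enzymes, 48 (87.3%) had at least 1 CPE in their longest annotated 3'-UTR, against 70.7% of the 7930 genes with such a 3'-UTR. The motifs searched were TTTTAT and TTTTAAT on the sense strand only, in GENCODE release M21 (GRCm38), and a match is a description of the letters and not of binding. The 30 bases around the last CPE are given for 6 enzymes that lead the comparisons below, with the CPE in capitals and the 5′ end first.

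Kdm6a: tttaaagggagTTTTAATacaggcttttca
Kdm1a: aactttaaaataaTTTTATatgaaaattta
Sirt1: acaaaaacagtgTTTTATacttgtatcttg
Setd2: ttttactgaactTTTTATgtaaaaaataaa
Nsd1: cttgaccatagcTTTTATctgtctatcctg
Suv39h2: gtgggctttttTTTTAATaacagaataaac

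These windows lie within single exons of the 3'-UTR at chrX:18279900-18279929 (plus strand, Kdm6a), chr4:136550540-136550569 (minus strand, Kdm1a), chr10:63319052-63319081 (minus strand, Sirt1), chr9:110618565-110618594 (plus strand, Setd2), chr13:55317605-55317634 (plus strand, Nsd1) and chr2:3455829-3455858 (minus strand, Suv39h2). The CPE ended 19 bases before the end of the transcript in Kdm6a, 11 in Kdm1a, 59 in Sirt1, 51 in Setd2, 703 in Nsd1 and 26 in Suv39h2. Across the enzymes, 16 (29.1%) had their last CPE within 100 bases of the end, against 22.3% of all genes. The 7 enzymes without either motif included Sirt7, Hdac6 and Setd6. For some enzymes the transcript with the longest 3'-UTR has a short coding part, with 585 bases in Sirt7, 354 in Eed and 143 in Setd4. The median over the enzymes was 2820 bases. Such a 3'-UTR may not be that of the main mRNA.

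Between 37817382 and 60052814 reads fell on genes in each library, and a floor of 3 reads came to 0.0388 to 0.111 CPM, the unit of the tables (reads of a gene relative to its library after scaling), and covers counting error only. Of 12 oocyte marker genes, 11 were in both tables, with summed levels of 13291 to 20508 CPM in HA libraries. Of 14 cumulus and granulosa markers, 3 were in the HA table (summed levels of 81.7 and 83.8 CPM in old and 156 and 182 CPM in young libraries) and 8 in the input table (32.5 and 117 CPM in old, 83.2 and 190 CPM in young), with Inhba and Star at 1 read each in the input of old pool 1. None of the markers of theca and stroma (5), blood and immune cells (4) or oviduct epithelium (4) was in either table. The part of cumulus transcripts in the results below was not tested. The replicate pools differed more in old HA libraries than elsewhere. The log2 level of 17 of the 55 enzymes differed by more than 2 between the old HA libraries (30.9%, against 34.8% of all genes), and that of 5 did between the young HA libraries (9.09%, against 12.8%). In input libraries the numbers were 9 for old and 2 for young pools.

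The enzymes together took 1.05% to 1.21% of the reads in the HA libraries and 1.08% to 1.2% in the input libraries. Per kilobase of exon, the highest input levels were those of Crebbp, an acetyltransferase and transcriptional coactivator (115 CPM per kb), Kdm6a, an H3K27 demethylase also known as UTX (114), Ezh2, the H3K27 methyltransferase of Polycomb repressive complex 2 (82.2), Kmt2c, an H3K4 methyltransferase of enhancers (72.6), and Kdm6b, the paralog of Kdm6a also known as JMJD3 (70.5). Reads were counted over whole genes, introns included, so these per-kb values hold intronic reads too. Crebbp had 1818 and 1508 CPM in the old and 1286 and 1635 CPM in the young input libraries. Kdm6a had 1011 and 1087 CPM in the old and 752 and 971 CPM in the young input libraries. The spread between libraries was small beside these levels, at 1562 ± 223 CPM for Crebbp and 955 ± 144 CPM for Kdm6a (SD, n = 4 libraries of both ages).

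In HA libraries the order differed, and Kdm6a was first (199 CPM per kb), followed by Ezh2 (118), Kmt2c (90.9), Kdm6b (85.7), the Polycomb subunit Suz12 (60.9) and Crebbp (55.7). The lowest was Sirt5, a mitochondrial deacylase (0.132 CPM per kb), with 1.31 and 0.0739 CPM in the old and 0.737 and 1.09 CPM in the young HA libraries. A level of 3 reads or fewer was found in at least 1 HA library for 5 enzymes, all of them in old libraries.

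**Figure D1:**
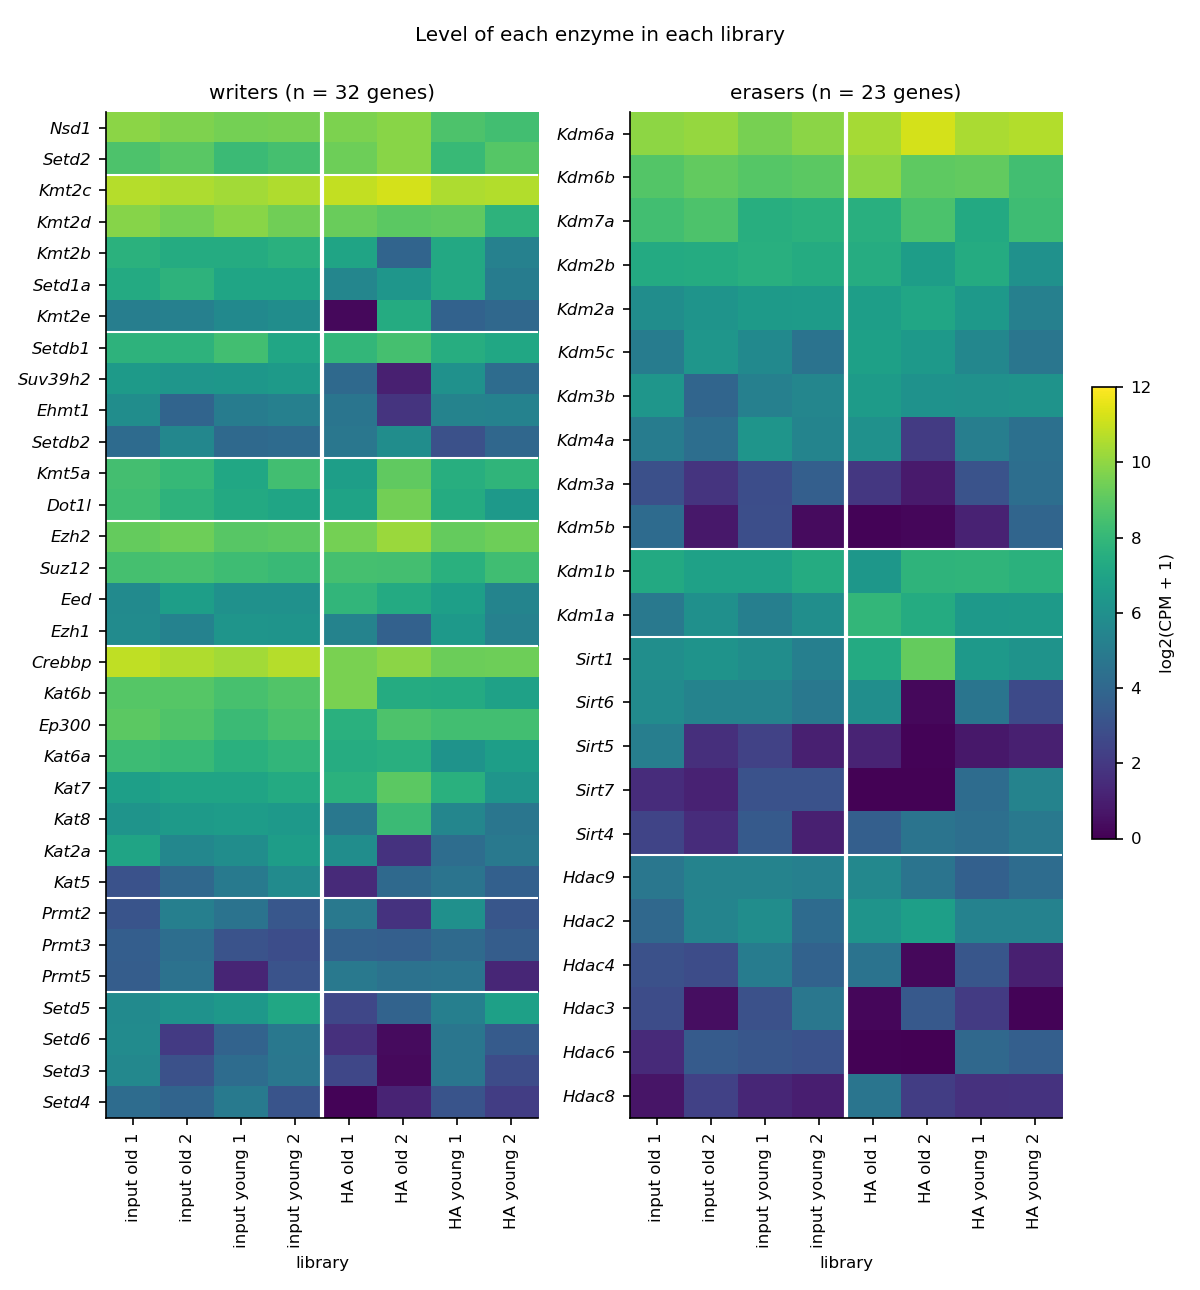
Level of each of the 55 enzymes (rows, grouped by family between white lines) in each of the 8 libraries (columns) as log2(CPM + 1), with writers on the left and erasers on the right. Kmt2c, Kdm6a and Crebbp are bright in all 8 libraries, and Sirt7 and Hdac6 are dark in both old HA libraries.

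How much of each mRNA was bound to ribosomes was read from HA over input in each pool. HA and input had been scaled separately by the authors, so a ratio has meaning only against the other genes, and the log2 ratio of the pool's median gene was subtracted. Enzymes whose ratio lay above that of the median gene in all 4 pools numbered 10 of 55 (18.2%, against 15.5% of all genes), and those below it in all 4 pools numbered 3 (5.45%, against 12.3%). These 10 held 7 of the 23 erasers and 3 of the 32 writers, and the 3 were all writers. The median log2 ratio over the 4 pools was 0.54 for erasers, -0.21 for writers and -0.09 for all genes. Within pools, the median for erasers was above that for writers in each (0.81 against -0.32, 0.52 against 0.32, 0.34 against 0.32, and 1.03 against -0.59). These medians are a description of the lists, and the difference between them was not tested.

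Kdm6a, whose product removes H3K27 methylation, was 1322 and 2395 CPM in the old and 1405 and 1552 CPM in the young HA libraries. Its HA over input was 1.31 and 2.2 in old and 1.87 and 1.6 in young pools, 2.37-fold that of the median gene (log2 1.24, standard error 0.22). Kdm6a passed the test with an adjusted p = 0.021 (limma, Benjamini-Hochberg over 8537 genes). Kdm1a encodes LSD1, the demethylase of mono- and dimethylated H3K4. Its input level was 27.5 and 64.6 CPM in old and 35.8 and 59.4 CPM in young libraries, and its HA level was 243 and 164 CPM in old and 87.5 and 93 CPM in young libraries. The HA over input of Kdm1a was 8.85 and 2.54 in old and 2.45 and 1.57 in young pools, 4.14-fold that of the median gene (log2 2.05, standard error 0.46, adjusted p = 0.0498 in limma). All 4 pools were thus above the median gene for both. The Kdm1a call was at the edge of the threshold, with adjusted p-values of 0.0508 to 0.103 under other pseudocounts, filters and centrings and of 0.593 and 0.448 without young pool 1 and without young pool 2. Kdm6a gave 0.306 and 0.195 without these young pools and 0.0824 without the subtraction of the median gene. The span of Kdm1a overlaps that of Luzp1, and the counting used no strand.

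These were the 2 enzymes past the adjusted threshold, 3.64% of 55, against 3.54% of all genes (3.29% above the median gene), a share near the background. Neither call held without young pool 1 or without young pool 2. Without 1 pool, which leaves a single pool at 1 age, the median log2 ratio of the enzymes ran from 0.0051 to 0.38. At an unadjusted p under 0.05 there were 11 enzymes above and 5 below the median gene, or 16 of 55 (29.1%), against 19.8% of all genes (11.7% above and 8.07% below). This split depended on the reference, with 8 above and 8 below when the pools were centred on genes over 10 CPM, 7 and 7 when genes under 10 CPM were left out, and 4 and 12 when the pools were not centred.

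Next to the threshold stood Sirt1, the nuclear NAD-dependent deacetylase, at 3.88-fold the median gene (log2 1.96, standard error 0.45, adjusted p = 0.0517 in limma). Its HA over input was 2.62 and 8.12 in old and 1.51 and 2.03 in young pools. Kmt2c (log2 0.77, adjusted p = 0.0711), Ezh2 (0.94, 0.0712) and Setd2 (0.95, 0.0869) were also above the median gene in all 4 pools. The highest ratio was that of Sirt4, a mitochondrial sirtuin, at 6.7-fold the median gene (log2 2.74, standard error 0.88), with input levels of only 1.05 to 9.54 CPM. Hdac8 (log2 1.71) and Hdac2 (1.48), both class I deacetylases, completed the 5 highest, and none of these 3 passed the adjusted test.

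The lowest ratios were those of Suv39h2, an enzyme of H3K9 trimethylation, Setd4, Kat2a, the acetyltransferase GCN5, Sirt6 and Setd3. Suv39h2 had 91.1 and 77.2 CPM in old and 81.9 and 90.7 CPM in young input libraries, a narrow range. In HA libraries it had 16.3 and 1.11 CPM in old and 67.2 and 17.8 CPM in young. Its HA over input was 0.179 and 0.0144 in old and 0.82 and 0.197 in young pools, so that young pool 1 was slightly above and the other 3 pools below the median gene (mean log2 -2.08, standard error 0.68, adjusted p = 0.14 in limma). Setd4 (log2 -1.91, adjusted p = 0.228) and Kat2a (-1.62, 0.195) were below the median gene in all 4 pools, as was Crebbp (-0.59, 0.18). Sirt6 (log2 -1.49) and Setd3 (-1.34) varied in side between pools.

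By family, of the 5 H3K4 methyltransferases, only Kmt2c had a positive mean log2 ratio, and Kmt2d (-0.40), Setd1a (-0.82), Kmt2e (-1.16) and Kmt2b (-1.20) had negative ones. Of the 4 core subunits of Polycomb repressive complex 2, Eed (1.17), Ezh2 (0.94) and Suz12 (0.32) were positive and Ezh1 (-0.22) was negative. Of the 8 acetyltransferases, Kat7 (1.05) and Ep300 (0.10) were positive, and the other 6 were negative. None of these writers passed the adjusted test.

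**Figure D2:**
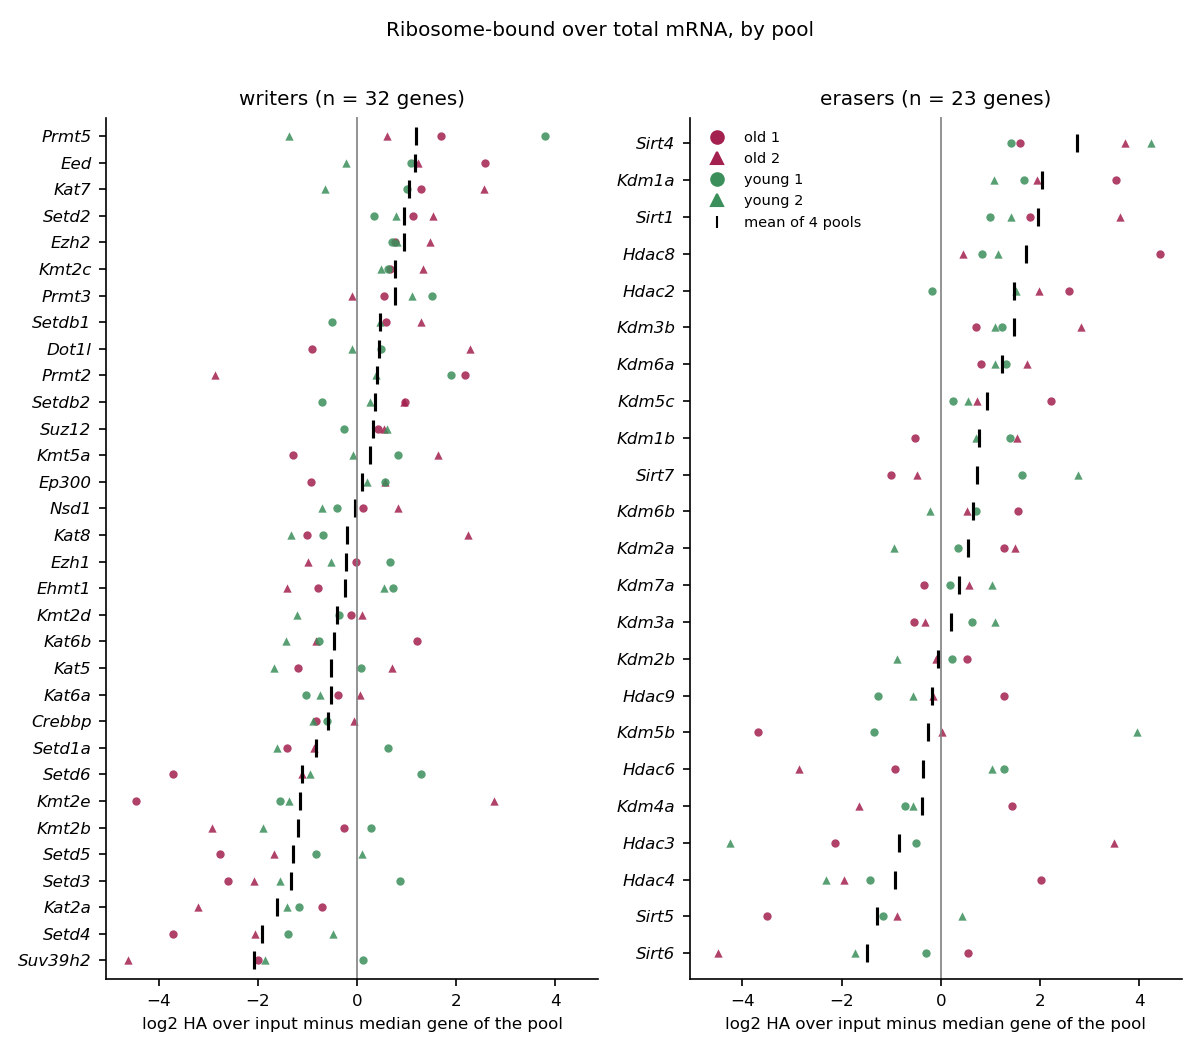
Log2 HA over input of each enzyme in each of the 4 pools, after subtracting that of the pool's median gene (grey line at 0), with a black bar at the mean of the pools. Sirt4, Kdm1a, Sirt1, Hdac8, Kdm3b, Kdm6a and Kdm5c among the erasers and Setd2, Ezh2 and Kmt2c among the writers have all 4 points right of 0.

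Whether ribosome association of these mRNAs differed with maternal age was compared between old and young HA libraries. None of the 55 enzymes, and none of the 8898 genes of the HA table (0%), passed an adjusted p under 0.05 in limma on log2(CPM + 1), a scale on which changes of genes with low CPM are understated. At an unadjusted p under 0.05 there were 5 enzymes (9.09%, against 14.7% of all genes). Of these, Sirt1, Nsd1 and Setd2 were higher in old libraries (all genes 4.28%), and Sirt7 and Hdac6 were lower (all genes 10.5%). With libraries rescaled to the same sum the split was 0 higher and 6 lower (all genes 15.6% in either direction). After quantile normalization it was 0 and 3 (all genes 5.43%). Without 1 pool, which leaves a single pool at 1 age, the median HA difference of the enzymes ran from 0.05 to 0.39. When the recovered reads were tested, the quasi-likelihood test of edgeR gave 0 enzymes at an adjusted p under 0.05 (8 unadjusted, all genes 13.5%). Its likelihood ratio test gave 2 (7 unadjusted, all genes 16.3%) and DESeq2 2 (7 unadjusted, all genes 16.3%). Shares of all genes at an adjusted p were not counted for these tests.

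Nsd1 and Setd2, the 2 H3K36 methyltransferases among the enzymes, had higher values in both old HA libraries than in either young one. Setd2 deposits H3K36 trimethylation, and Nsd1 the mono- and dimethylated forms. Nsd1 had 790 and 937 CPM in old and 406 and 333 CPM in young HA libraries (log2 difference 1.22, standard error 0.38, unadjusted p = 0.0162, adjusted p = 0.297 in limma). Its input levels, 973 and 806 CPM in old and 718 and 731 CPM in young, did not overlap either (log2 0.29, unadjusted p = 0.24). Setd2 had 645 and 934 CPM in old and 272 and 459 CPM in young HA libraries (log2 1.13, standard error 0.45, unadjusted p = 0.0418, adjusted p = 0.326 in limma), and 395 and 492 CPM in old and 285 and 356 CPM in young input libraries. After rescaling to the same sum, the HA difference was 0.59 for Nsd1 (unadjusted p = 0.14) and 0.49 for Setd2 (0.246 in limma). Both genes lost the unadjusted call without either young pool, and Setd2 lost it without old pool 2 as well.

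Sirt1 had 159 and 566 CPM in old and 87.9 and 70.8 CPM in young HA libraries, so that old pool 2 stood far above the other 3. The log2 difference was 1.92 (standard error 0.71, unadjusted p = 0.0321, adjusted p = 0.313 in limma). It was 1.00 without old pool 2 and 2.83 without old pool 1, with the lone old pool assumed to vary like the young ones. The unadjusted call was lost without old pool 2 and without either young pool. The input levels of Sirt1, 60.7 and 69.8 CPM in old and 58.3 and 35 CPM in young libraries, did not overlap either.

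Sirt7, a sirtuin of the nucleolus, and Hdac6, a mostly cytoplasmic deacetylase of tubulin, had at most 2 reads in either old HA library. Young HA libraries held 1408 and 2293 Sirt7 reads (18.2 and 40.4 CPM), whereas the old ones held 2 and 1 (0.0475 and 0.037 CPM). In input it had 1.84 and 1.18 CPM in old and 7.23 in each young library. For Hdac6, young HA libraries held 1216 and 645 reads (15.7 and 11.4 CPM), and the old ones 2 and 0 (0.0475 and 0 CPM). In input it had 1.65 and 10 CPM in old and 8.19 and 7.07 CPM in young libraries, so that the input levels overlapped.

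The difference in limma was -4.76 for Sirt7 (standard error 1.32, unadjusted p = 0.00912, adjusted p = 0.297) and -3.81 for Hdac6 (1.04, 0.00845 and 0.297), and both values depend on the pseudocount of 1 CPM. No fold is given at 0 to 2 reads. Both genes reached 1 CPM in HA in the young libraries only, so they are among the measured genes through the group where they are high. Tests of genes that entered this way lean toward lower values in old oocytes. On the recovered reads, both passed the adjusted threshold in edgeR's likelihood ratio test (adjusted p = 0.0422 for Sirt7 and 0.0462 for Hdac6). They did so in DESeq2 too (5.46e-07 and 6.51e-04), and neither did in the quasi-likelihood test (0.294 for both). Sirt7 overlaps Mafg and a microRNA gene, whereas no annotated gene overlaps Hdac6. In pooled oocytes, fewer oocytes with the mRNA and less of it per oocyte cannot be told apart.

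**Figure D3:**
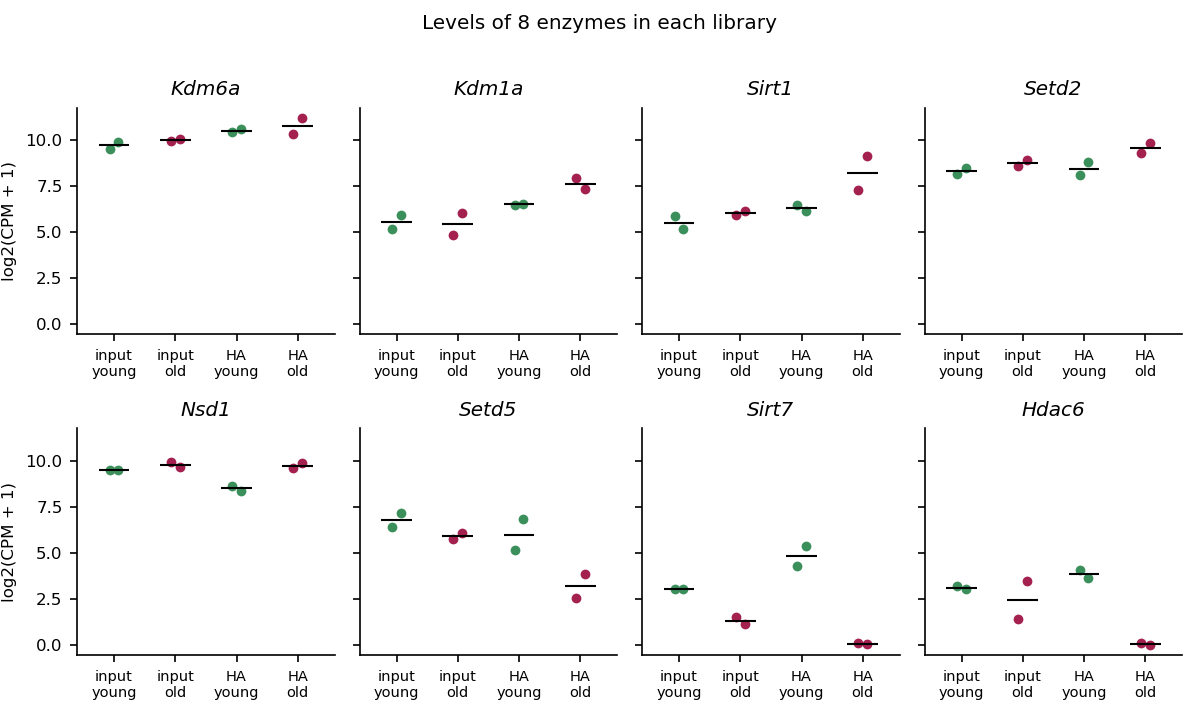
Levels of 8 enzymes as log2(CPM + 1) in each library (points) with the mean of the pair (bars), for young (green) and old (red) oocytes in input and HA. Sirt7 and Hdac6 are at or near 0 in both old HA libraries, and Nsd1 and Setd2 in old HA lie above both young HA libraries.

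Without regard to a test, 19 enzymes had both old HA libraries above both young ones (34.5%, against 17.2% of all genes) and 10 had them below (18.2%, against 24.7%). Among the 19 were 12 writers and 7 erasers. The 4 enzymes listed as other SET domain proteins were all among the 10. Setd5, which is a chromatin-associated SET protein, had 4.92 and 13.2 CPM in old and 34.7 and 113 CPM in young HA libraries (log2 -2.80, standard error 1.22, unadjusted p = 0.0567). Setd3, an actin histidine methyltransferase, had 4.89 and 0.222 CPM in old and 25.1 and 5.83 CPM in young HA libraries. Setd4 had 0.0713 and 1.26 CPM against 7.81 and 3.6 CPM, and Setd6, a methyltransferase of non-histone proteins, had 2.19 and 0.259 CPM against 25.4 and 9.98 CPM. Their log2 differences ran from -3.09 to -2.03, and none passed a test. In input, 3 of these 4 overlapped between ages, and Setd5 was lower in old libraries (52.8 and 67.6 against 82.8 and 141 CPM).

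Among the other families, the Polycomb subunits Eed (238 and 161 CPM in old, 107 and 42 CPM in young HA libraries), Ezh2 (726 and 1183 against 576 and 655 CPM) and Suz12 (346 and 344 against 195 and 319 CPM) did not overlap, with the difference for Ezh2 and Suz12 changing sign under both other scalings. Eed had an unadjusted p = 0.0603 and a log2 difference of 1.53 in limma. Of the 8 acetyltransferases, Crebbp, Kat6a, Kat6b and Kat7 were higher in both old HA libraries, and none was lower, with Crebbp changing sign under both scalings. Ep300, the paralog of Crebbp, had 194 and 406 CPM in old and 326 and 324 CPM in young libraries. Kdm5b, an H3K4 demethylase, was found with 93 and 791 reads in young HA libraries and with 3 and 4 in old ones, whereas its input levels overlapped (17.4 and 0.722 against 6.43 and 0.289 CPM). In HA it reached 1 CPM in the young libraries only.

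The remaining enzymes with known roles in oocytes or early embryos mostly overlapped between ages in HA. Setdb1, the H3K9 methyltransferase of retroelement silencing, had 244 and 348 CPM in old and 175 and 141 CPM in young HA libraries, which did not overlap (log2 0.89, unadjusted p = 0.112 in limma). Hdac2, with 73.4 and 109 against 38.9 and 38.8 CPM, did not overlap either (1.18, 0.147 in limma). Kdm1b, the H3K4 demethylase needed for maternal imprints, had 79.8 and 220 CPM in old and 231 and 203 CPM in young libraries. Kmt2b, the main H3K4 methyltransferase of growing oocytes, had 127 and 13.4 against 149 and 38.2 CPM. Its relative Kmt2d had 609 and 504 against 538 and 213 CPM, and the demethylase gene Kdm6b had 983 and 520 against 557 and 324 CPM.

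Kmt5a, which monomethylates H4K20, had 104 and 533 CPM in old and 185 and 230 CPM in young HA libraries, and Dot1l had 125 and 686 against 166 and 89.3 CPM. For both, old pool 1 lay within or below the young range and old pool 2 above it. Kat8, the H4K16 acetyltransferase, likewise had 26.8 and 292 against 44.8 and 25 CPM. Prmt5, which dimethylates arginines symmetrically, had 27.5 and 22 against 23.7 and 1.43 CPM. Hdac3, the deacetylase of the NCoR complex, had 0.166 and 9.13 against 3.23 and 0.0705 CPM, a range as wide within each age as between them. For Kmt2e, a catalytically inactive relative of the H3K4 enzymes, and for Sirt6, an H3K9 deacetylase, the old HA libraries themselves were far apart, at 0.19 and 165 CPM and at 59.1 and 0.185 CPM.

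The median HA difference was 0.29 for the 55 enzymes (0.30 for writers and 0.29 for erasers) and -0.14 for all genes of the table. With rescaling to the same sum these were -0.31 and -0.68, and after quantile normalization -0.15 and -0.05. The HA difference of a gene moved with its level. Among all genes, the median ran from -1.14 in the lowest decile by mean HA level to 0.59 in the highest decile, and 29 of the 55 enzymes were in the 3 highest deciles. In those deciles the medians of the enzymes were 1.09 (7 enzymes), 1.14 (11) and 0.48 (11), beside 0.24, 0.41 and 0.59 for all genes. In deciles 2, 3, 4, 6 and 7 the medians of the enzymes were below those of all genes. They were -2.31 (5 enzymes) against -0.70 in decile 4 and -0.70 (11) against -0.32 in decile 6. In deciles 1 and 5 they were above.

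**Figure D4:**
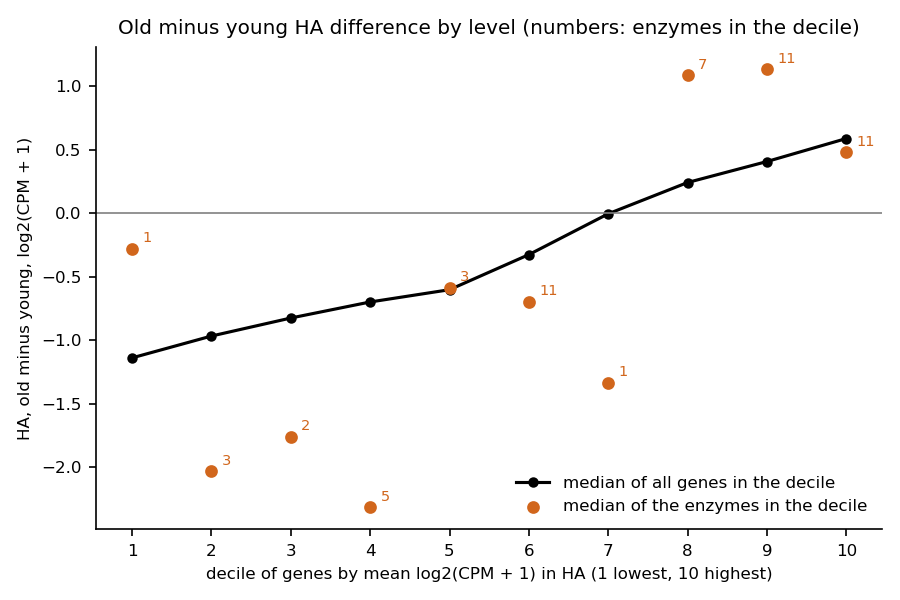
Median HA difference between old and young libraries by decile of genes ordered by mean HA level, for all genes (black line) and for the enzymes in that decile (orange, with their number). The line for all genes runs from -1.14 to 0.59, and 29 of the 55 enzymes are in deciles 8 to 10.

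Total mRNA was compared in the same way over the 10530 genes of the input table. None of the enzymes passed an adjusted p under 0.05 in limma (all genes 0.0095%), in edgeR's quasi-likelihood or likelihood ratio test or in DESeq2. At an unadjusted p under 0.05 there were 3 (5.45%, against 6.18% of all genes), 2 higher (all genes 2.71%) and 1 lower (all genes 3.48%) in old oocytes, and 3, 3 and 4 with these tests on recovered reads. Kdm7a, a demethylase of H3K9 and H3K27, had 327 and 403 CPM in old and 183 and 199 CPM in young input libraries (log2 0.92, standard error 0.27, unadjusted p = 0.00942, adjusted p = 0.778). Dot1l, the H3K79 methyltransferase, had 315 and 216 CPM in old and 157 and 130 CPM in young (log2 0.86, unadjusted p = 0.0261). Kat5, the acetyltransferase TIP60, had 7.17 and 15.4 CPM in old and 29.8 and 54.6 CPM in young (log2 -1.84, unadjusted p = 0.0404 in limma), and its span overlaps Rnaseh2c. All 3 lost the unadjusted call without young pool 1, where limma gave unadjusted p-values of 0.0503 for Kdm7a, 0.0639 for Dot1l and 0.107 for Kat5.

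Both old input libraries were above both young ones for 15 enzymes (27.3%, against 16.4% of all genes) and below for 11 (20%, against 18.9%). By class the counts were 12 higher and 5 lower for writers and 3 higher and 6 lower for erasers. The median input difference was 0.15 for writers, -0.13 for erasers and -0.03 for all genes. Setd2 and Ep300, at 499 and 418 against 293 and 380 CPM, were among the higher writers. Kdm4a, an H3K9 and H3K36 demethylase, had 31.7 and 19.3 CPM in old and 75.4 and 41 CPM in young libraries (log2 -1.14, unadjusted p = 0.0864 in limma).

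**Figure D5:**
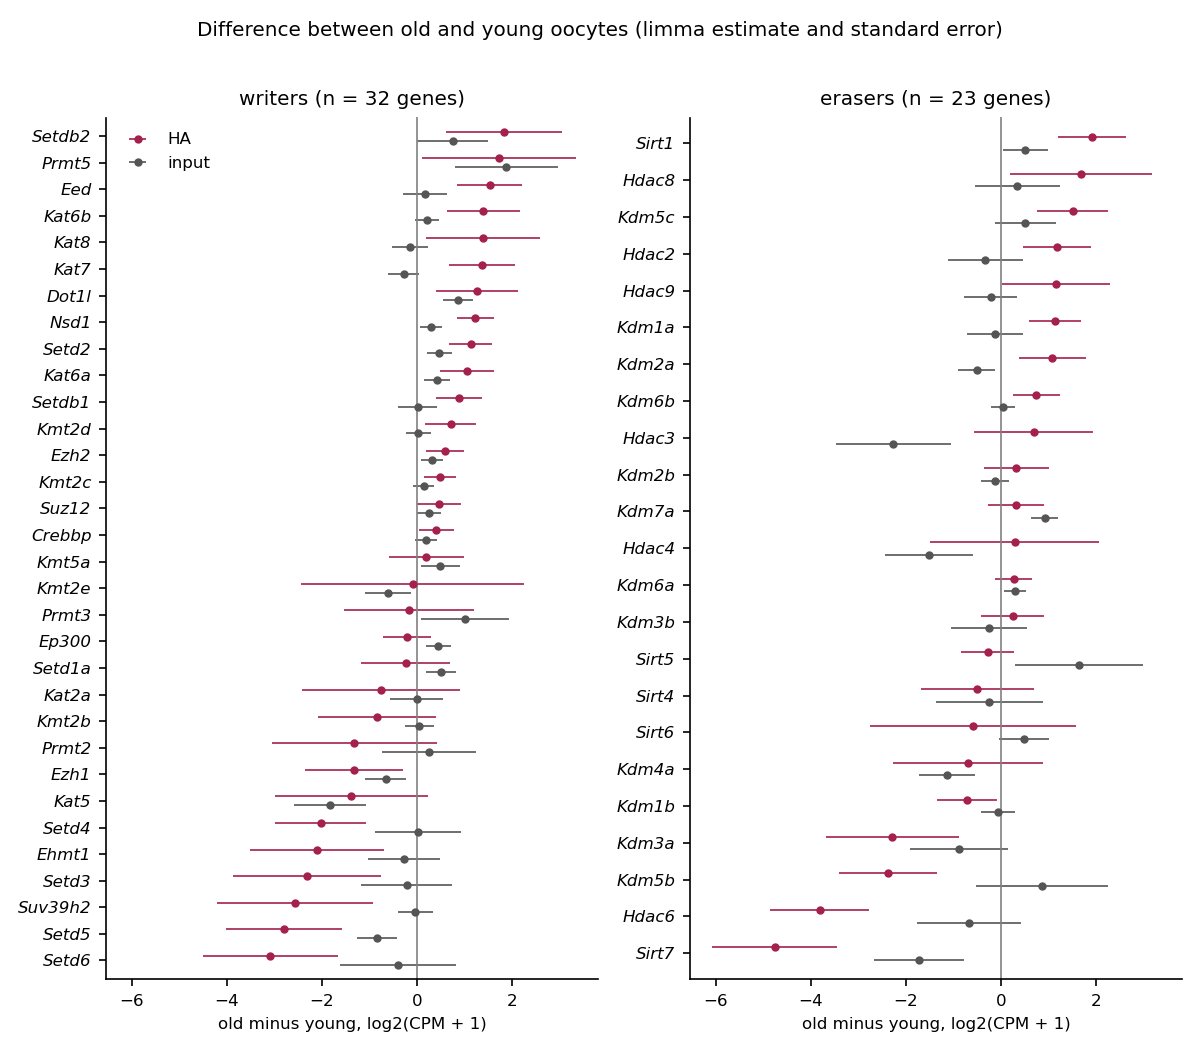
Difference between old and young libraries for each enzyme in HA (red) and input (grey) as log2(CPM + 1), with bars of 1 standard error from limma. The HA differences run from -4.76 for Sirt7 to 1.92 for Sirt1, and the input differences from -2.26 for Hdac3 to 1.88 for Prmt5.

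Translation efficiency (TE) was taken per pool as HA over input and compared between ages over 8537 genes. No enzyme passed an unadjusted p under 0.05 in limma (0%, against 6.49% of all genes, 2.98% higher and 3.51% lower), nor an adjusted one (smallest adjusted p = 0.739). For the interaction of age and fraction, edgeR's quasi-likelihood test gave 2 enzymes at an unadjusted p, both lower (all genes 7.44% in either direction). It gave 0 at an adjusted p. Without 1 pool, which leaves a single pool at 1 age, the median TE difference of the enzymes ran from 0.09 to 0.38. The smallest unadjusted p-values in limma were 0.0601 for Nsd1 (log2 0.94), 0.067 for Sirt7 (-3.03), 0.0683 for Kat7 (1.66) and 0.0702 for Hdac6 (-3.14). Kat7, the acetyltransferase HBO1, had an HA over input of 1.83 and 3.91 in old and 1.51 and 0.469 in young pools. Kdm2a, an H3K36 demethylase, had 1.81 and 1.88 in old and 0.95 and 0.379 in young pools (log2 1.60, unadjusted p = 0.0993). TE did not overlap for 14 enzymes higher in old pools (25.5%, against 17.2% of all genes) and 10 lower (18.2%, against 20.4%). The median TE difference was 0.27 for the enzymes and -0.10 for all genes, and with rescaling to the same sum it was -0.18 and -0.48, with quantile normalization -0.24 and -0.03.

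Members of the same complexes and histone modifiers whose symbols the rule does not match were read as a list of 120 genes measured in both tables, of 151 listed (COMPASS subunits, Polycomb subunits, acetyltransferase and deacetylase complex subunits, and other histone-modifying enzymes). At an unadjusted p under 0.05 there were 20 in old against young HA libraries (16.7%, against 14.7% of all genes), 13 of them higher and 7 lower (all genes 4.28% and 10.5%). In input there were 5 (4.17%, against 6.18%), 4 higher and 1 lower (all genes 2.71% and 3.48%), and in TE there were 8 (6.67%, against 6.49%), 6 higher and 2 lower (all genes 2.98% and 3.51%). None had an adjusted p under 0.05 in limma. The median HA difference was 0.26. In HA over input, 26 differed from the median gene at an unadjusted p (21.7%, against 19.8% of all genes), 15 above and 11 below it (all genes 11.7% and 8.07%). The adjusted threshold was passed by 4 (3.33%, against 3.54% of all genes), a share near the background, and all 4 were above the median gene. They were Rbbp7, a histone-binding subunit of several complexes (log2 2.09, adjusted p = 0.00335), Sin3a, a deacetylase scaffold (1.64, 0.0172), Sap30, its partner (1.58, 0.0173), and Jarid2, an accessory subunit of Polycomb repressive complex 2 (1.22, 0.026 in limma). The list also holds enzymes of the families above under older or other symbols, among them Whsc1 and Whsc1l1, the relatives of Nsd1 also called NSD2 and NSD3, and the arginine methyltransferase Carm1, also called PRMT4. Whsc1 had 122 and 139 CPM in old and 109 and 77.4 CPM in young HA libraries (log2 0.50, unadjusted p = 0.421 in limma). Whsc1l1 had 49.8 and 69.3 against 26 and 28 CPM (log2 1.09, unadjusted p = 0.238 in limma). For both, the old and young HA libraries did not overlap. Carm1 had 3.33 and 2.4 CPM in old and 3.83 and 0.582 CPM in young HA libraries, which overlapped, and its HA over input was low (log2 -2.59 against the median gene, unadjusted p = 0.0112, adjusted p = 0.125 in limma).

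Over the 55 enzymes, the number of CPEs had a Spearman's rho of 0.28 with the TE difference, 0.27 with the HA difference and 0.06 with HA over input. Over all 7930 genes these were 0.06, 0.10 and 0.15. The points share libraries, and these values are descriptions across genes with no p. The 7 enzymes without a CPE had a median HA difference of -1.32 (all genes without one -0.41), the 25 with 1 or 2 had 0.19 (-0.12), and the 23 with 3 or more had 0.47 (0.02).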

How the data were processed

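RNA-Seq of 8 libraries was analysed. The authors trimmed reads with Trimmomatic 0.36, aligned them with HISAT2 to GRCm38 and counted them with HTSeq over whole genes, unstranded. The deposited signal values are CPM after TMM normalization by the authors, set separately for HA and input. A filter of 10 CPM is stated, and the tables hold genes below it. All values were whole multiples of 1 read (100%, within 0.01 read), so reads were recovered. Columns left out, 0. Of the gene identifiers, 99.8% were found in GENCODE M21, and 33 of the 55 spans overlap another annotated gene.

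The members and lists were chosen with earlier results of these data known. Ages were compared with limma (lmFit, eBayes with trend) on log2(CPM + 1), two-sided, adjusted by Benjamini-Hochberg across the genes tested, with no pairing between ages. Each pool's HA was paired with its own input, taken from the same lysate. With 2 pools against 2, an exact permutation test cannot give p below 0.333. Named genes were enzymes with a textbook role in oocytes or embryos, the 3 higher and 3 lower with the smallest p in each of HA, input and TE, the 5 highest and 5 lowest ratios and the 5 highest input levels per kb. Others named were chosen after their values were seen. Of 200 simulated log2 changes of 2, limma recovered at an adjusted p 4% for HA (8898 genes), 31% for input (10530), 2.5% for TE (8537) and 24.5% for HA over input (8537). Of 200 changes of 4 it recovered 48.5%, 69.5%, 30% and 78.5%. Software was Python 3.11.15 (pandas 2.3.3, numpy 2.4.6, matplotlib 3.10.9, scipy 1.17.1) and R 4.3.3 (DESeq2 1.42.0, edgeR 4.0.16, limma 3.58.1).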

Additional observations from a re-analysis of the deposited data

Results flagged for a closer look

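For 5 enzymes, HA over input lay on one side of the pool's median gene in both old pools. It lay on the other side in both young pools. How many of all genes did so was not counted, so this number has no background beside it. The comparison of TE between ages tested the difference between old and young pools, without the subtraction of the median gene. None of the 5 passed it (limma, unadjusted p of 0.0601 for Nsd1, 0.067 for Sirt7, 0.0702 for Hdac6, 0.185 for Ehmt1 and 0.378 for Kdm3a, with an adjusted p of 0.739 or above). The log2 ratio of Hdac6 against the median gene was -0.92 and -2.86 in old and 1.28 and 1.04 in young pools, and the old minus young difference was -3.05. For Sirt7 it was -1.01 and -0.47 in old and 1.63 and 2.76 in young pools, with a difference of -2.94. Both values rest on 0 to 2 reads in each old HA library. For Nsd1 it was 0.13 and 0.82 in old and -0.41 and -0.71 in young pools, with a difference of 1.03. The H3K9 methyltransferase gene Ehmt1 had -0.80 and -1.41 in old and 0.72 and 0.54 in young pools, a difference of -1.73. Kdm3a, an H3K9 demethylase, had -0.55 and -0.32 in old and 0.63 and 1.10 in young pools, a difference of -1.30.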

How the results depend on the processing

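The number of enzymes at an unadjusted p under 0.05 in HA was 5, and it was 3 after quantile normalization, 8 in edgeR's quasi-likelihood test and 3 to 23 without a pool. At an adjusted p it was 0, with 2 in DESeq2, 2 in the likelihood ratio test of edgeR and 0 to 5 without a pool. The count of 23 came without old pool 1. The median HA difference of 0.29 moved to -0.15 with quantile normalization and -0.31 with the same sum, and ran from 0.05 to 0.39 without a pool. In input, the count of 3 was 0 to 4 without a pool, and the median of 0.03 was -0.16 with the same sum and 0.018 to 0.20 without a pool. In TE, the count of 0 was 2 with a pseudocount of 0.1 CPM, 1 with quantile normalization, 2 in edgeR's quasi-likelihood test and 0 to 14 without a pool. The median TE difference of 0.27 was -0.24 with quantile normalization and -0.18 with the same sum. In HA over input, the 16 unadjusted calls ran from 6 to 24 and the 2 adjusted calls from 0 to 17 without a pool. The adjusted count was 1 with pseudocounts of 0.1 and 5 CPM, 1 without centring and 1 centred on genes over 10 CPM. The median of 0.10 was -0.37 without centring and 0.0051 to 0.38 without a pool.

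With the replicate number as a block, 8 enzymes had an unadjusted p under 0.05 in HA (all genes 15.5%), 3 in input (6.44%) and 2 in TE (7.12%), none adjusted. Old and young pools of the same number share only that number (correlation of deviations 0.08 in HA and 0.03 in input). For HA and input of the same pool, which were paired since they share a lysate, this correlation was 0.006 in old and 0.11 in young pools. Without the pairing of HA and input by pool, 2 enzymes passed the adjusted threshold in HA over input. With 2 pools an age, single low genes are poorly determined. The causes of these differences were not tested.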
